A study of Mus musculus with 12 samples.

Results

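Gbp2b and Gbp5 encode guanylate-binding proteins, large GTPases that cells make in response to interferon. Both genes were chosen by their measured levels in these tumors, because each was higher than in vehicle with every treatment, so their differences from vehicle are given here as a description without a test. They are 2 of the 750 endogenous genes of the nCounter PanCancer mouse immune panel, which counts RNA molecules with a barcoded probe per gene and without amplification. Both passed the filter on low values that left 646 of the 750 genes for testing. The tumors were grown from CT26, a colon carcinoma line of the mouse, under the skin of BALB/c animals and resected whole at day 4 after dosing. The 4 groups of 3 mice received vehicle, the small-molecule TLR7 agonist DSP-0509 (5 mg/kg, intravenously), anti-PD-1 antibody (200 µg/mouse), or the combination of both agents at these doses. All tumors came from 1 implanted line, and each was a separate mouse.

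Guanylate-binding proteins are among the genes that interferon-gamma induces most strongly in mouse cells, and type I interferons induce them as well. The proteins assemble on the membranes of vacuoles that hold bacteria or parasites, and GBP5 is known from work in mouse macrophages to promote inflammasome assembly. Gbp2b is the current name of the mouse gene long called Gbp1. TLR7 is an endosomal receptor for single-stranded RNA whose activation leads to type I interferon, and PD-1 blockade acts on T cells, a main source of interferon-gamma in tumors.

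The reference annotation (GRCm38.p6) holds 10 protein-coding Gbp genes, 5 on chromosome 3 and 5 on chromosome 5, and 2 of these were on the panel. Gbp5 lies at chr3:142496934-142522344 and Gbp2b at chr3:142594816-142619179, both on the plus strand, with starts 97.9 kb apart. The probe sequences were not used here, so whether a probe also captures RNA of another Gbp gene was not checked. The upstream sequences are shown because induction by interferon is known to act through short elements in such promoters. Capitals mark matches to the core of the interferon-stimulated response element (GAAANNGAAA, or TTTCNNTTTC on the other strand) and to the core of the gamma-activated site (TTCNNNGAA, which reads the same on both strands). The RefSeq sequences run from 5′ to 3′, for Gbp2b over chr3:142594597-142594815 and for Gbp5 over chr3:142496684-142496933, and each stops at the first base before the annotated gene. The start site that the promoter table uses for Gbp2b lies inside the annotated gene, so the last 31 bases of its 250-base window are not printed.
Gbp2b: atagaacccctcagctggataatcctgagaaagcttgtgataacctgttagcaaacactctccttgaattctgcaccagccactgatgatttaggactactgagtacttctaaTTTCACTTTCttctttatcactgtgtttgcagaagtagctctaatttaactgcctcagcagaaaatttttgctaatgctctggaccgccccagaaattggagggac
Gbp5: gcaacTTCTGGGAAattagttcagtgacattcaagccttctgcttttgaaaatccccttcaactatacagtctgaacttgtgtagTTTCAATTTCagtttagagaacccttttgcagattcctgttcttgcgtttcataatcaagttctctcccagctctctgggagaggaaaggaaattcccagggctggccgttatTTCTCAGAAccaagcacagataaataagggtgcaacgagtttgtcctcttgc

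In Gbp2b the response element core TTTCACTTTC lies at chr3:142594710-142594719. In Gbp5 the core TTTCAATTTC lies at chr3:142496769-142496778, and the gamma-activated cores TTCTGGGAA and TTCTCAGAA lie at chr3:142496689-142496697 and chr3:142496882-142496890. No match overlapped another. Of 32851 promoter windows of 250 bases in the table, 2.98% held the response element core, 7.02% the gamma-activated core and 0.332% both. Over all windows a match to the first was thus uncommon, and both members had one. It was not particular to them among the interferon gene lists described below. The response element core lay in 5 of 10 windows of TLR7 and type I interferon signalling genes. It lay in 8 of 24 windows of type I interferon-stimulated genes. For interferon-gamma it lay in 1 of 7 windows of signalling genes and 1 of 9 of targets. Among the Gbp genes that were not on the panel, 3 had windows in the table, and 3 of their 4 windows held the response element core. A match of letters is a description and not a site of binding.

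Gbp2b was higher in each of the 9 treated tumors than in any vehicle tumor, which goes with the rule that chose the gene. For single treated groups this held for 12.4% (anti-PD-1) to 38.5% (combination) of the tested genes, and the share for all treated groups at once was not counted. The vehicle tumors had normalized counts of 3369.95, 4246 and 3312. With anti-PD-1 antibody the values were 7558, 9648 and 9721, and with DSP-0509 they were 14750.4, 9399 and 7542. The combination gave 13934, 18293 and 17863. The DSP-0509 tumors were the most spread, since the first of them lay within the range of the combination and the lowest, its tumor 3, lay below all 3 anti-PD-1 tumors.

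Gbp5 had the same order of groups. The vehicle tumors had normalized counts of 403.3, 680.4 and 462.9, the anti-PD-1 tumors 840.9, 1234 and 1243, the DSP-0509 tumors 1414, 1384 and 1349.6, and the combination tumors 1653, 1927 and 2328. No 2 groups of tumors overlapped for Gbp5, and the separation from vehicle goes with the rule that chose the gene. For single pairs of groups this held for 1.55% (DSP-0509 above anti-PD-1) to 38.5% (combination above vehicle) of the tested genes. The share for all pairs at once was not counted. The DSP-0509 tumors, which were the most scattered for Gbp2b, were the closest together for Gbp5, with a coefficient of variation of 2.33% against 35.4%. That of Gbp5 is at or below the counting error of those tumors, which was 2.59% to 3.03% of the count. Levels of the 2 genes were not compared with each other, because probes differ in efficiency.

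**Figure D1:**
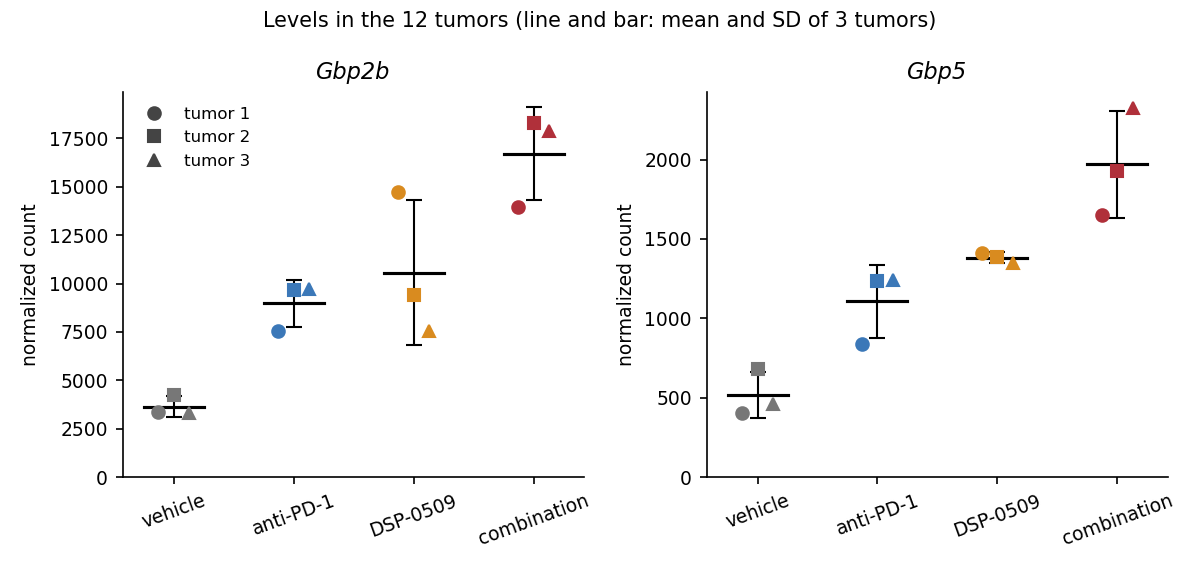
Normalized counts of Gbp2b (left) and Gbp5 (right) in each of the 12 tumors, by group on the horizontal axis, with a line at the mean and a bar of 1 SD over 3 tumors. For both genes all treated tumors lie above all vehicle tumors, and a Gbp2b value of a DSP-0509 tumor (14750.4) reaches into the combination group.

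Counting error was small beside these differences. Totals ran from 750416 to 1155698 counts per tumor (median 951161), Gbp5 was read with 388 to 2495 counts and Gbp2b with 3242 to 19619, and the largest counting error of a member was 5.08% of its count. The negative control probes reached at most 22.7 normalized counts at their mean plus 2 SD, far below either gene. The authors' scaling left the median of the 646 tested genes 0.34 higher on the log2 scale in the combination than in vehicle, 0.20 higher with DSP-0509 and 0.18 higher with anti-PD-1 antibody, while the median of the 20 housekeeping genes moved by -0.12, -0.00115 and -0.0361.

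The group means of Gbp2b were 3643 ± 523 (SD, n = 3) in vehicle, 8975 ± 1230 with anti-PD-1 antibody, 10560 ± 3740 with DSP-0509 and 16700 ± 2400 in the combination. On the log2 scale the difference from vehicle was 1.30 for anti-PD-1 antibody, 1.49 for DSP-0509 and 2.20 for the combination (SE 0.24 each), which corresponds to 2.46-fold, 2.80-fold and 4.58-fold. The 3 differences share the same vehicle tumors.

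For Gbp5 the means were 515.5 ± 146 in vehicle, 1106 ± 229 with anti-PD-1 antibody, 1383 ± 32.2 with DSP-0509 and 1970 ± 339 in the combination. Its log2 differences from vehicle were 1.11, 1.46 and 1.95 (SE 0.225), or 2.16-fold, 2.75-fold and 3.87-fold. With the shift of the median tested gene taken off, the differences of the combination were 1.86 for Gbp2b and 1.61 for Gbp5. The members were picked for this rise, so nothing is concluded from its size. Over all tested genes, every tumor lay above every vehicle tumor for 16.4% of genes in the DSP-0509 group, 12.4% in the anti-PD-1 group and 38.5% in the combination group.

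By their means, the log2 difference of the combination from vehicle lay below the sum of those of the single agents. On this scale a sum stands for a product of folds, and addition of the counts themselves was not examined. The gap was -0.59 (SE 0.34) for Gbp2b and -0.62 (SE 0.318) for Gbp5. With each tumor left out in turn it ran from -0.807 to -0.324 and from -0.835 to -0.458. This quantity holds the differences from vehicle by which the genes were selected and was therefore not tested.

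Some cell markers moved beside these genes in the combination, where 139 of all 646 tested genes (21.5%) were called higher. That share depends on the scaling, as described with the gene lists below. The 3 T cell markers (Cd3d, Cd3e, Cd3g) all rose at an adjusted p under 0.05 in limma, and their summed level went from 230 to 412 in vehicle to 753 to 1491. Both CD8 T cell markers rose (summed level 69.6 to 127 in vehicle, 225 to 561 in the combination). Of these, Cd8b1 was near the negative probes in vehicle at a mean of 20.4. Of 2 tested NK cell markers, Klrd1 was called, while Ncr1 (0.98, adjusted p = 0.252 in limma) was not. The NK cell sums were 245 to 651 and 839 to 1721, with Klrb1c at background in all tumors. Of the fibroblast markers, 3 of 4 rose (sums of 3082 to 18271 and 17761 to 32797), which are the collagens Col1a1 and Col3a1 and the protease gene Fap. The T cell, CD8 T cell and fibroblast markers thus moved with Gbp2b and Gbp5, and their part in the result was not tested. For NK cells the call rested on 1 marker.

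Markers of other cell types were called in part or not at all. Beside the 21.5% of all tested genes called higher, a single call in so short a list is not read as a result. The macrophage markers had 1 of 5 called higher, Cd68 (sums of 4404 to 8869 in vehicle and 7485 to 9642 in the combination), and the neutrophil markers 1 of 3, Csf3r (754 to 974 and 625 to 1516). No marker was called among 3 of dendritic cells (125 to 147 and 142 to 182), 5 of endothelium (1439 to 2252 and 1440 to 2204) or the 1 tested of B cells (40.2 to 88.2 and 63.4 to 86.8), of which Cd79a was at background in every tumor. Ptprc, carried by all leukocytes, differed by 1.03 on the log2 scale (adjusted p = 0.0622, limma). With DSP-0509 or anti-PD-1 antibody alone no marker passed, while the log2 ratio of the summed T cell level to vehicle was 0.655 and 0.95. The epithelial markers Epcam and Cdh1, which a carcinoma may carry, were low, with sums of 69.2 to 72.8 in vehicle and 65.5 to 183 in the combination. In whole tumors, a larger share of cells that express a gene and more RNA per cell cannot be told apart.

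The differences between treated groups were not used to choose the genes, and these were tested with limma over all 646 genes. The combination was higher than anti-PD-1 antibody alone by 0.89 (SE 0.24, 95% confidence interval 0.361 to 1.43) for Gbp2b and by 0.84 (SE 0.225, 0.342 to 1.34) for Gbp5 on the log2 scale. All 3 combination tumors lay above all 3 anti-PD-1 tumors for both genes, which held for 15.5% of the tested genes. The unadjusted p was 0.00376 for Gbp2b and 0.00366 for Gbp5 in limma, where 9.44% of genes were higher at an unadjusted p under 0.05. After Benjamini-Hochberg adjustment the limma p was 0.303 for both, so neither passed. With limma array weights, which give scattered tumors less weight, the differences were 0.86 for Gbp2b and 0.66 for Gbp5. The adjusted p from limma was then 0.0146 and 0.0368, in a setting that called 19 of the 646 genes higher and 6 lower.

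Against DSP-0509 alone, the combination was higher by 0.71 (SE 0.24, 0.174 to 1.24) for Gbp2b and by 0.50 (SE 0.225, -0.0032 to 0.996) for Gbp5. The Gbp2b groups overlapped, through the first DSP-0509 tumor, and the Gbp5 groups did not, which was so for 16.7% of the tested genes. The unadjusted limma p was 0.0142 for Gbp2b and 0.0512 for Gbp5 (9.13% of genes were higher at an unadjusted p under 0.05), and the adjusted p was 0.422 and 0.471.

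The 2 single agents were closest. DSP-0509 exceeded anti-PD-1 antibody by 0.19 (SE 0.24, -0.346 to 0.72) for Gbp2b, with overlapping groups, and by 0.34 (SE 0.225, -0.155 to 0.844) for Gbp5, with all 3 tumors higher, which held for 1.55% of the tested genes. The adjusted p was 0.999 for both in limma. For Gbp2b the direction turned without the first DSP-0509 tumor, where the difference was -0.08. In these 3 comparisons limma called 0% of the genes at an adjusted p under 0.05 (0 of 646 in each), with 64 genes at an unadjusted p under 0.05 for the combination against DSP-0509, 66 against anti-PD-1 antibody and 25 between the single agents, and the methods' t-test called 0 after adjustment. In the order vehicle, anti-PD-1 antibody, DSP-0509 and combination, no neighbouring pair of treated groups passed the adjusted test for either gene, and the step up from vehicle is described without a test. The comparisons share tumors and are not independent of each other.

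**Figure D2:**
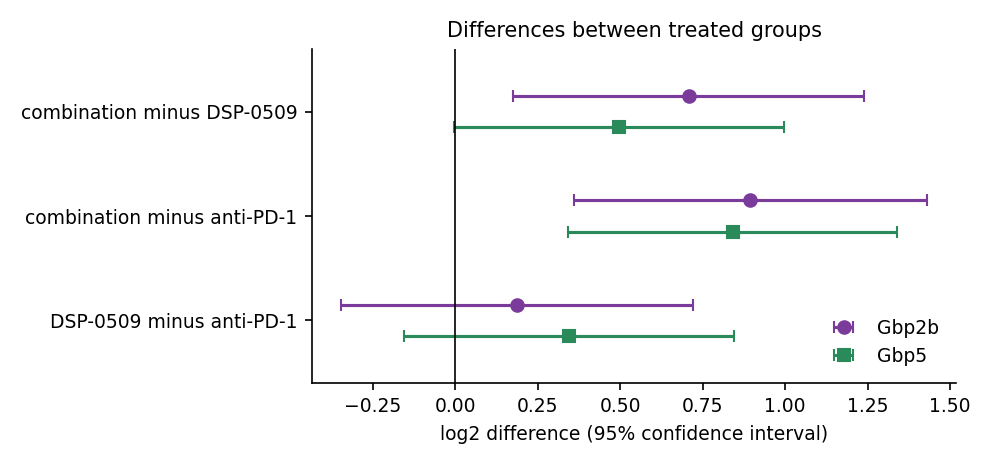
Log2 differences between treated groups (horizontal axis) with 95% confidence intervals from limma, for Gbp2b (circles) and Gbp5 (squares), 3 tumors per group. The intervals are not adjusted for the number of genes, and no comparison passed at an adjusted p under 0.05. Those of the combination against anti-PD-1 antibody start at 0.361 and 0.342. That of Gbp5 against DSP-0509 (-0.0032 to 0.996) and those between the single agents cross 0.

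The ratio of the genes within a tumor does not depend on the scaling of that tumor. The log2 ratio of Gbp2b to Gbp5 was 3.06, 2.64 and 2.84 in the vehicle tumors, 3.17, 2.97 and 2.97 with anti-PD-1 antibody, 3.38, 2.76 and 2.48 with DSP-0509 and 3.07, 3.25 and 2.94 in the combination. The group means lay between 2.85 ± 0.21 in vehicle and 3.09 ± 0.154 in the combination (SD, n = 3). Because levels against vehicle chose the genes, the ratio was tested among the 3 treated groups, where an exact permutation test of the F statistic over all 1680 assignments of the tumors to groups gave p = 0.686. The DSP-0509 group held both the highest and the lowest ratio of all tumors, and its SD of 0.461 was the largest. The outcome rested on its first tumor, without which the exact permutation p was 0.025.

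Within groups, tumors that were high for Gbp2b tended to be high for Gbp5. Deviations from the group means were to the same side in 10 of 12 tumors, with Pearson's r = 0.58 (exact permutation within groups, two-sided, p = 0.00694) and Spearman's rho = 0.68 (p = 0.0177). Without DSP-0509 tumors 1 and 3, which lay farthest out for Gbp2b, r was 0.90 (exact permutation p = 0.0324), with rho = 0.78 (exact permutation p = 0.0556). With the replicate number as a block (deviations also centred on each number and permuted within it) r was 0.75 (permutation p = 0.00919) and rho 0.58 (permutation p = 0.0547). No other relation across tumors was tested. With each tumor centred on its median gene, r was 0.48 (exact permutation p = 0.133), so the relation lost its call when the level shared by all genes was taken out. Many genes also moved with the members in this way: the r between Gbp5 and Gbp2b ranked 202 among the 645 genes set against Gbp5, whose median r was 0.38, and 68 among those set against Gbp2b, whose median r was 0.08.

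**Figure D3:**
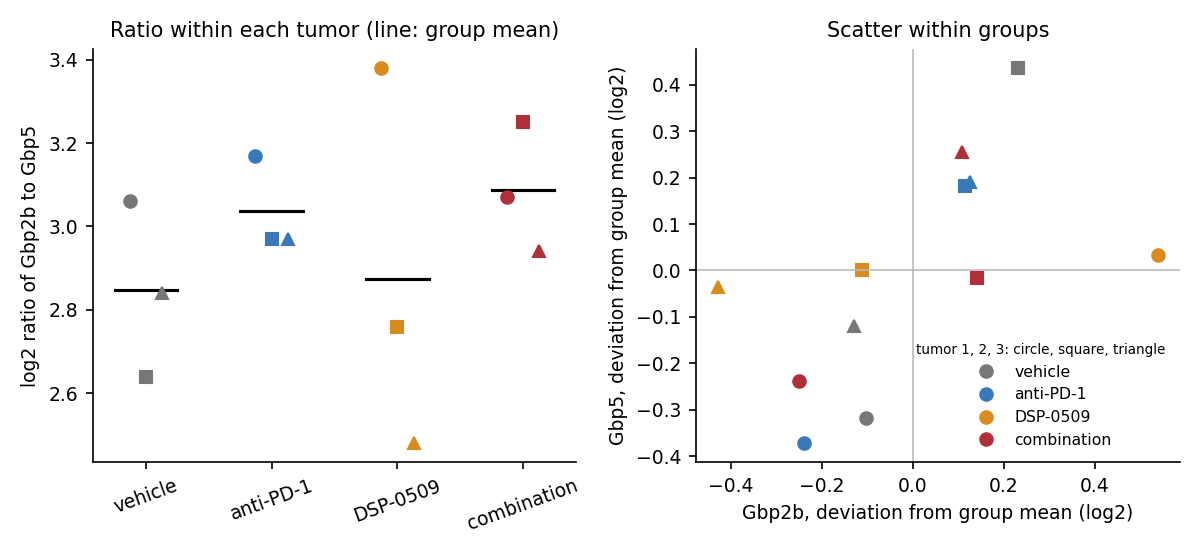
Left, the log2 ratio of Gbp2b to Gbp5 in each tumor by group, with a line at the group mean. Right, the deviation of each tumor from its group mean on the log2 scale, Gbp2b on the horizontal and Gbp5 on the vertical axis, where 10 of 12 tumors lie to the same side for both genes and DSP-0509 tumors 1 and 3 lie apart near 0 for Gbp5.

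The genes with values most like those of the members were found over all 12 tumors, so the differences from vehicle that chose the members weigh in this likeness. It was measured as the root-mean-square difference of log2 values, each gene centred on its mean over the 12 tumors. For Gbp2b the nearest gene was Gbp5 (0.244), then Zbp1 (0.247), a sensor of left-handed nucleic acid that is itself induced by interferon, Fasl (0.297), the death ligand of cytotoxic lymphocytes, Irgm2 (0.314), another interferon-induced GTPase, and Cd274 (0.328), which encodes PD-L1. For Gbp5 the nearest were Fasl (0.191), Irgm2 (0.203), Zbp1 (0.217), the chemokine gene Cxcl9 (0.224), Gbp2b (0.244) and Prf1 (0.248), which encodes perforin, so that 4 genes lay closer to Gbp5 than Gbp2b did. The median over all other tested genes was 0.787 for Gbp2b and 0.701 for Gbp5.

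Zbp1 ran from 1059 to 1673 normalized counts in vehicle, 2342 to 3186 with anti-PD-1 antibody, 2744 to 4334 with DSP-0509 and 3808 to 5390 in the combination. Irgm2 ran from 208 to 320 in vehicle, 365 to 598 with anti-PD-1 antibody, 539.9 to 694 with DSP-0509 and 595 to 949 in the combination. Fasl was near the limit of the negative probes in vehicle, at 14.6 to 28.0, against 62.3 to 95.2 in the combination. These genes were taken for having the members' pattern, so their own differences from vehicle add no support to it. Among the 5 of these genes whose promoter windows were in the table, Irgm2 alone held the response element core and the gamma-activated core.

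**Figure D4:**
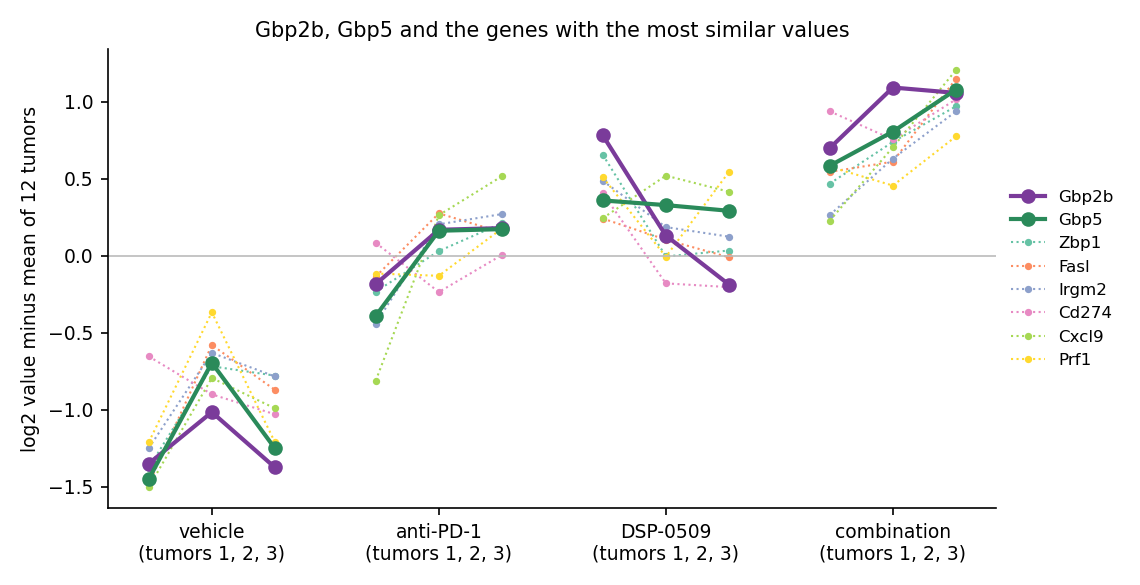
Log2 values of Gbp2b and Gbp5 (thick lines) and of 6 other genes with small differences from either (dotted), each minus its mean over the 12 tumors, by tumor. Lines join tumors of 1 group and stand for no order. By group mean all 8 genes are lowest in vehicle and highest in the combination.

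Genes of the interferon pathway were counted in lists, with 139 of the 646 tested genes (21.5%) called higher and 3 (0.464%) lower in the combination against vehicle as the background. That split depends on the scaling, and was 65 higher and 67 lower after quantile normalization and 63 and 136 after centring each tumor on its median gene. Among the ligand and signalling genes of interferon-gamma, 4 of 7 rose. Ifng, the ligand, had 12.2 to 20.9 normalized counts in vehicle, within the reach of the negative probes (up to 22.7), and 30.6 to 69.98 in the combination, so its call (adjusted p = 0.024, limma) is given without a size. Also called were Irf1 (1.26), a transcription factor that interferon-gamma induces, and Socs1 (0.89), a feedback inhibitor. The receptor gene Ifngr1 (0.15) and the kinase gene Jak2 (0.02) did not pass. The list median was 0.89 against 0.34 over all tested genes.

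Of the targets of interferon-gamma, 13 of 14 rose in the combination, with a median of 1.15, from Ido1 (2.09), which encodes a tryptophan-degrading enzyme, Cxcl11 (1.82), Cxcl9 (1.81) and Cd274 (1.76) to the antigen-processing genes Tap1 (1.06) and Psmb8 (0.98). Ido1 had 23.64 to 39.25 normalized counts in vehicle, close to the reach of the negative probes (up to 22.7), so its size is uncertain. Fcgr1 (0.76, adjusted p = 0.144 in limma) did not pass. All the lists were chosen with earlier results of these data known. A gene may respond to both interferon-gamma and type I interferon, as guanylate-binding proteins do, so the lists cannot tell these apart. Cxcl9 and Cd274 were also among the genes taken above for their likeness to the members.

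In the list of TLR7 and type I interferon signalling, 1 of 7 tested genes was called, Irf7 (1.02, adjusted p = 0.047), a transcription factor that drives type I interferon production. The list median was 0.43 against 0.34 over all tested genes, and it turned to -0.149 after quantile normalization and -0.102 after centring on the median gene. Tlr7, the target of DSP-0509, had a log2 difference of 0.61 (adjusted p = 0.252). The type I interferon genes Ifna1, Ifna2, Ifna4 and Ifnb1 did not pass the filter on low values, with group means of 5.80 to 16.4 normalized counts. No change in them could be measured in these day 4 tumors, and other times were not sampled here. Type I interferon-stimulated genes were called in 12 of 24 (median 0.82), among them Zbp1 (1.68), Ifit3 (1.23), Oas3 (1.19) and Isg15 (1.04), while Ifitm1 (0.02), Ifitm2 (-0.03) and Ifi27 (-0.02) stayed near 0. Of the other interferon-induced GTPases, Irgm2 (1.498) and Mx2 (0.70) rose, and Mx1 did not pass the filter. Zbp1 and Irgm2 were also taken above for their likeness to the members, so their calls add no support to the members' rise.

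Genes that act near the proteins differed among themselves. Of the inflammasome genes 3 of 5 tested rose in the combination, Mefv (1.51), which encodes pyrin, the cytokine gene Il18 (0.99) and the protease gene Casp1 (0.79), while Nlrp3 (0.50, adjusted p = 0.0648) and Il1b (-0.28, adjusted p = 0.629) did not pass and the adaptor gene Pycard was below the filter. None of 5 Atg genes, whose products are known to help place guanylate-binding proteins on vacuoles in mouse cells, was called, with a median of -0.09.

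**Figure D5:**
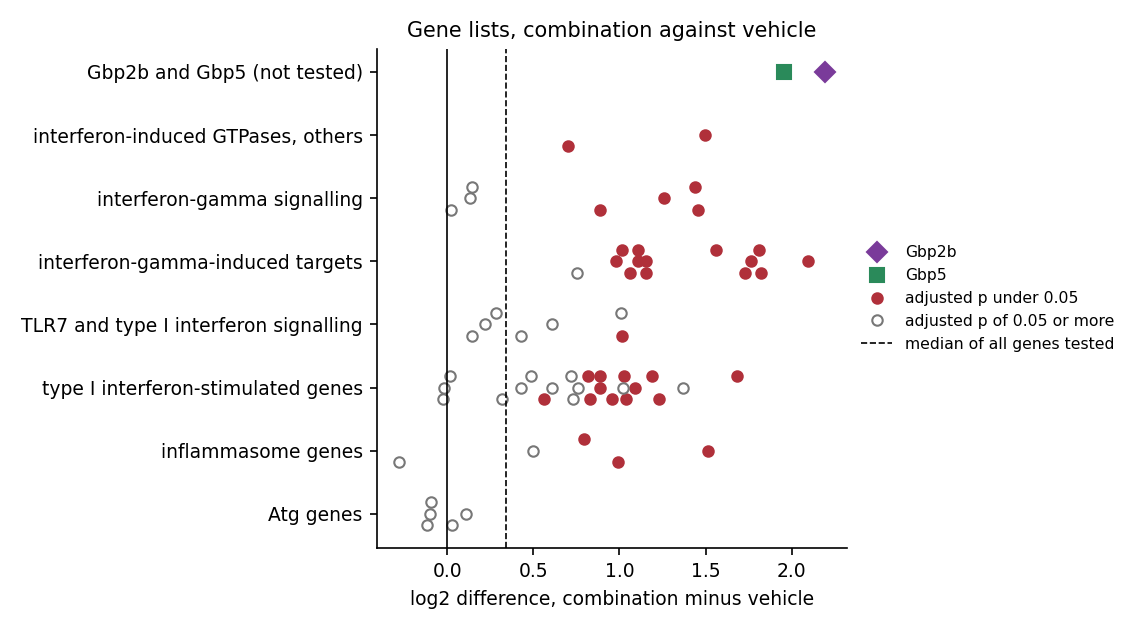
Log2 differences between the combination and vehicle (horizontal axis) for Gbp2b and Gbp5, which were not tested, and for each tested gene of the 7 lists (filled, adjusted p under 0.05 in limma; open, 0.05 or more). The dashed line is the median of all tested genes (0.34), and 13 of the 14 interferon-gamma-induced targets are filled.

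The number of calls for the single agents depended on the setting. With DSP-0509, 5 of 646 genes (0.774%) were called higher in limma and, of the 54 tested genes in the 5 interferon lists, 1, Ido1 (1.93, adjusted p = 0.0193). The vehicle values of Ido1 lay close to the negative probes. After rescaling to housekeeping genes the counts were 28 over all genes and 17 in the lists, and with the replicate block 76 and 19. The list median was 0.52 against 0.20 over all genes. With anti-PD-1 antibody limma called 0 of 646 (0%), with 83 at an unadjusted p under 0.05 and 0 by the methods' t-test after adjustment, and the list median was 0.51 against 0.18. With the replicate number as a block, since same-numbered tumors of these groups deviated together, 32 genes were called higher, 9 of them in the 5 interferon lists, and with array weights 153 and 28. In the combination 32 of the 54 were called higher and 0 lower, with a median of 0.97. No gene of the 5 lists was called between treated groups, where the median was 0.34 for the combination against DSP-0509, 0.43 against anti-PD-1 antibody and 0.08 between the single agents. The count of 32 fell to 17 without vehicle tumor 1 or combination tumor 3 and to 19 without combination tumor 2, and it was 19 after quantile normalization, 17 after centring on the median gene and 2 with the methods' t-test. The count of 1 for DSP-0509 went to 0 without vehicle tumor 1, vehicle tumor 3 or DSP-0509 tumor 3, to 2 without anti-PD-1 tumor 3 and to 11 without anti-PD-1 tumor 1.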

How the data were processed

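RNA of 12 CT26 tumors was measured on the nCounter PanCancer mouse immune panel (750 endogenous genes, 20 housekeeping genes, 8 negative and 6 positive control probes). The authors normalized the counts in nSolver, and the deposited values are a signal, namely the count of each gene multiplied by 1 factor per tumor with no background subtracted. How that factor was chosen is not given in the sources used here. Because the values are normalized, no count model was run, and the whole-number steps of the low values served only to read depth. A gene was tested if 3 or more tumors had a value of 20 or higher (646 of 750 genes). The log2(value + 1) values were fitted with limma 3.58.1 in R 4.3.3, over all 12 tumors without covariates, with Benjamini-Hochberg adjustment over all tested genes in each comparison at 0.05. Fold changes are on the log2(value + 1) scale. Exact permutation tests used Python 3.11.15 with NumPy 2.4.6, and figures matplotlib 3.10.9. The methods were tested on simulated data.

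The members and the gene lists were chosen with earlier results of these data known. Named genes are the members, the 6 genes nearest to each, and members of the pathway and marker lists, of which a few are not reported here. Tumors carry numbers 1 to 3 in each group, with no statement that these stand for a litter or day in common. Same-numbered tumors deviated together, with each correlation above 0.1, between vehicle and anti-PD-1 tumors (0.18 to 0.68), between DSP-0509 and combination tumors (0.32 to 0.59) and between anti-PD-1 and combination tumors (0.14 to 0.69), but not in the other comparisons. The labels give a tumor volume range at grouping that is larger than the volume in the study's text. Alternatives were a pseudocount of 10, no filter, a filter of 50, rescaling to housekeeping genes, quantile normalization, centring on the median gene and background subtraction. Further ones were a fit of only the groups compared, array weights, an unpaired t-test, the replicate block and each tumor left out. The t-test used log2(value + 1) values of the 2 groups compared, with Benjamini-Hochberg adjustment. The study used nSolver for the nCounter data and names a t-test for data of 2 groups. The t-test counts here therefore do not stand for the study's own calls. A test of the ratio of the genes among all 4 groups had been planned, and its restriction to the treated groups and the block for the within-group correlation were chosen after seeing the data.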

Additional observations from a re-analysis of the deposited data

How the results depend on the processing

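The adjusted p of Gbp2b and Gbp5 between treated groups stayed above 0.05 under every alternative except limma array weights, where the combination exceeded anti-PD-1 antibody by 0.86 for Gbp2b (adjusted p = 0.0146, range over its alternatives 0.0146 to 0.756) and by 0.66 for Gbp5 (0.0368, range 0.0368 to 0.756). Against DSP-0509 the ranges were 0.0664 to 0.798 and 0.14 to 0.846. With the replicate block the adjusted p was 0.213 and 0.214 against DSP-0509 and 0.11 and 0.109 against anti-PD-1 antibody, and it changed no call of a member. The Gbp2b difference between DSP-0509 and anti-PD-1 antibody turned to -0.00533 with array weights and to -0.0827 without DSP-0509 replicate 1. With each tumor left out in turn it ran from -0.0827 to 0.401. The exact permutation test of the ratio among treated groups gave p = 0.583 with the replicate block and 0.025 to 0.964 with each tumor left out. Centring on the median gene lowered the within-group r to 0.484. The log2 difference of the combination from vehicle was 1.67 for Gbp2b and 1.62 for Gbp5 after quantile normalization and 1.66 and 1.42 after centring on the median gene, where that of Gbp5 for anti-PD-1 antibody was 0.828.

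The count of called genes in the 5 interferon lists depended on the setting. For DSP-0509 (1) it was 7 with a pseudocount of 10, 8 with a filter of 50 and 17 after rescaling to housekeeping genes. It was 6 after quantile normalization, 2 after centring, 14 with array weights and 0 with the unpaired t-test. With the replicate block it was 19, and with a tumor left out 0 to 11. For anti-PD-1 antibody (0) it was 28 with array weights, 9 with the block and 0 to 1 with a tumor left out. For the combination (32) it was 19 after quantile normalization, 17 after centring, 2 with the t-test and 17 to 37 with a tumor left out. Over all genes the combination had 139 higher and 3 lower, against 231 and 1 after rescaling to housekeeping genes, 65 and 67 after quantile normalization, 63 and 136 after centring, 90 higher in a fit of only the groups compared, 261 and 25 with array weights, 245 and 5 with the block, 4 and 0 with the t-test and 58 to 170 higher with a tumor left out. DSP-0509 (5 higher) had 11 with a pseudocount of 10, 13 with a filter of 50, 28 after rescaling, 10 after quantile normalization, 1 in the fit of only the groups compared, 33 and 5 lower with array weights, 0 with the t-test and 76 and 5 lower with the block, and anti-PD-1 antibody (0) had 153 and 12 lower with weights and 32 with the block. Between treated groups the weights gave 19 higher and 6 lower for the combination against anti-PD-1 antibody, and the block 3 higher.

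Some list medians changed sign. That of TLR7 and type I interferon signalling was 0.43 in the combination but -0.149 after quantile normalization and -0.102 after centring, and 0.331 for anti-PD-1 but -0.00684 after quantile normalization. The Atg median in the anti-PD-1 group was 0.0043 after rescaling and 0.0203 with array weights, and in the combination 0.0213 with weights. With a tumor left out it ran from -0.0718 to 0.0579 for anti-PD-1, -0.129 to 0.0169 for the combination and -0.166 to 0.0185 for DSP-0509. The causes were not tested. Of 1905 other values, 1701 moved by less than the spread or 1.5 times, 194 by more and 10 changed sign. Depth did not limit the members, and 104 genes below the filter were not tested.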
